A study of Mus musculus with 3 samples.

Results

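The collagen, laminin and matrix protease genes build, anchor and cut the extracellular matrix of the fetal testis. NR2F2 binding near them was mapped by ChIP-seq, in which an antibody pulls down the chromatin that a protein sits on and the DNA is sequenced. The genes were chosen by symbol from the curated RefSeq annotation of the mouse genome GRCm38 (the same assembly as mm10): Col, Lama, Lamb, Lamc, Adamts or Mmp followed by a digit, Timp1 to Timp4, and Fn1. This gave 102 of the 26180 annotated genes. A peak was counted for a gene when its nearest transcription start site (TSS) belonged to the gene or when any TSS of that gene was at most 50 kb away. By this rule, 101 of the 10069 NR2F2 peaks were matrix gene peaks, and 64 of the 102 genes had at least 1. The rule used no read count, so neither the strength of a peak nor its sequence was fixed by it.

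All libraries came from whole testes of embryos of the CD-1 mouse stock, taken at embryonic day E14.5, freed of the mesonephros, pooled and frozen. An antibody against COUP-TFII, another name of NR2F2, gave 2 ChIP libraries from separate experiments. The control was 1 input library of sheared chromatin without immunoprecipitation, and there was no other genotype, stage or treatment. Each peak was 300 bp long. Counts at all peaks summed to 73251 in the input, 426784 in ChIP replicate 1 and 364261 in ChIP replicate 2. The matrix gene peaks took 1.05% of the input counts, 1.12% of the counts of replicate 1 and 1.13% of those of replicate 2. In whole testes, binding in fewer cells and weaker binding per cell cannot be told apart.

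Collagens of the fibrillar class form the fibers of the interstitium. Type IV collagen and the laminins form the sheets of basement membrane, which in the fetal testis surround the testis cords and the vessels. Matrix metalloproteinases (MMP) and the ADAMTS proteases cut these proteins and the proteoglycans between them, and the TIMP proteins inhibit the proteases. NR2F2 is a nuclear receptor found in interstitial cells of the fetal testis, and COUP-TF proteins bind repeats of the letters AGGTCA or close forms of them.

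Sequences that carry the extended binding motif of the receptor, AGAGGTCA or AGGGGTCA on either strand, are shown first because they place the letters that NR2F2 is known to read in the peaks of these genes, whether inside a matrix gene, beside it or in a neighboring gene. Of the 101 matrix gene peaks, 15 held such a match, and 7 of the 8 strongest of these that did not touch an untranslated region are given here. Each is the plus strand of mm10, 5′ to 3′, and capitals mark the match, which reads TGACCCCT where it lies on the minus strand. The first 4 have a matrix gene as their nearest gene.

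Col5a3 intron, chr9:20785995-20786294: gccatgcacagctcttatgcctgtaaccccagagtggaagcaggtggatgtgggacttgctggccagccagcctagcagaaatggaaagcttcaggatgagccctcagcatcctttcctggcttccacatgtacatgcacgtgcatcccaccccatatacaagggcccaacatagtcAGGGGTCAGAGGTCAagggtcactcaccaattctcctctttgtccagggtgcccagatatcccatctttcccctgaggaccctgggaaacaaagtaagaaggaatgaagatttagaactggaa
Lamc1 promoter, chr1:153332951-153333250: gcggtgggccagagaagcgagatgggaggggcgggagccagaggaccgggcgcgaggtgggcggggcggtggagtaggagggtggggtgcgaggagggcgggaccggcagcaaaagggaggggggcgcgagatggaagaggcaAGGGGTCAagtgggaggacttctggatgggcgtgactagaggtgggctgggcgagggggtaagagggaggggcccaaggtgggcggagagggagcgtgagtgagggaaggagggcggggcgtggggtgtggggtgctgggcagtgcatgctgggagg
Col4a4 intron, chr1:82554891-82555190: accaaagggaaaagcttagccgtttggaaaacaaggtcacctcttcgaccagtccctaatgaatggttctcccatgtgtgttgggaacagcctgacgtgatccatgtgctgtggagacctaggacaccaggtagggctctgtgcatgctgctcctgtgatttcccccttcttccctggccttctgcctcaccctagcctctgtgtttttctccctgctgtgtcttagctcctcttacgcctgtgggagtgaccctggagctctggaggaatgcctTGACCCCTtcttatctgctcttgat
Mmp14 downstream flank, chr14:54443260-54443559: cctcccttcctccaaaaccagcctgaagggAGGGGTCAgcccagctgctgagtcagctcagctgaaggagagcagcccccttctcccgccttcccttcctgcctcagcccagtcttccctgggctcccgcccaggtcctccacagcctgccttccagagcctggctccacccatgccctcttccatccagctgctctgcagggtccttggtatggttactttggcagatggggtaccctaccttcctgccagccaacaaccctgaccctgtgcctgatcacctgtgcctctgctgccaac
Mmp28 intron, nearest TSS 1700020L24Rik, chr11:83448015-83448314: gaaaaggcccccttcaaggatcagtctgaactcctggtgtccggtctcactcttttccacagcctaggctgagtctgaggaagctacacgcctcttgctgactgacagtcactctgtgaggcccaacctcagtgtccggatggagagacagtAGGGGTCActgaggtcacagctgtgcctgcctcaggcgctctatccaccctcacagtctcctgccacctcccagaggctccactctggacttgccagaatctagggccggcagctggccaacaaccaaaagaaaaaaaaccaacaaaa
1700020L24Rik coding exon, near Mmp28, chr11:83440265-83440564: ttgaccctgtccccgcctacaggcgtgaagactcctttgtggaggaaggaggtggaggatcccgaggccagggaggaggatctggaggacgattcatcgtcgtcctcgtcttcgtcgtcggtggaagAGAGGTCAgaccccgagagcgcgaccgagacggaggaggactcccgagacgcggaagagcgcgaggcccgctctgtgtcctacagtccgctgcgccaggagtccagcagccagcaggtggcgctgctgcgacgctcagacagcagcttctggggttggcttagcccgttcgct
Usp21 intron, near Adamts4, chr1:171287309-171287608: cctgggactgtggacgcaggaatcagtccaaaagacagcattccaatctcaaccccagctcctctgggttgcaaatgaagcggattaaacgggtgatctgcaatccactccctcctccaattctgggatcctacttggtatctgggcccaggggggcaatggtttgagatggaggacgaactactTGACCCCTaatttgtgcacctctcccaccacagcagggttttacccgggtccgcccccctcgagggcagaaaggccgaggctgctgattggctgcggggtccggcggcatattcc

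The Col5a3 peak was the only 1 of the 7 with 2 matches, which share a single letter. Together with the letters that follow, they spell GGGTCAGAGGTCAAGGGTCA at chr9:20786174-20786193, which is 3 copies of the core AGGTCA or GGGTCA in a row, each separated from the next by 1 base. After these sequences had been seen, all peaks were searched for the core repeated on the same strand with a spacer of 0 to 5 bases. A spacer of 1 base was the most frequent, in 239 of 10064 peaks (2.37%), and it was found in 4 of the 101 matrix gene peaks (3.96%). Besides Col5a3, these were the Timp3 peak at chr10:86245341-86245640, with the run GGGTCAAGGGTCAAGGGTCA, and the peaks at the TSS of Ccdc71 near Lamb2, with GGGTCAAGGGTCA, and of H2-Ke6 near Col11a2, with AGGTCAGAGGTCA. The Mmp28 intron held the only repeat with a spacer of 3 bases among matrix gene peaks, GGGTCACTGAGGTCA. The counts at these peaks ranged from low to high. The Timp3 peak with 3 cores in a row had 9 input reads and 16 and 21 ChIP reads, in the 9.66 percentile of all peaks by summed ChIP count, whereas the peak at Ccdc71 had 3 input reads and 105 and 83 ChIP reads.

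The 2 ways in which a peak could belong to a matrix gene gave different kinds of sites. In 55 peaks the nearest TSS was that of a matrix gene, and these belonged to 42 genes. Of the 42 genes, 31 had 1 such peak, 9 had 2, and Adamts1 and Col25a1 had 3. The other 46 peaks lay within 50 kb of a matrix gene but nearer to another gene, and 37 of the 46 lay within 1 kb of that other gene's TSS. There were 22 matrix genes that had only such neighbor peaks, among them Mmp9, Lamb2 and Col7a1, and 38 genes had no peak. The nearest peaks are therefore given apart from the neighbor peaks.

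By role, a nearest peak was found for 7 of the 12 laminin and fibronectin genes (58.3%), 6 of the 11 fibrillar collagen genes (54.5%), 2 of the 4 Timp genes (50%), 9 of the 19 Adamts genes (47.4%), 4 of the 9 basement membrane collagen genes (44.4%), 9 of the 24 other collagen genes (37.5%) and 5 of the 23 Mmp genes (21.7%). Over all matrix genes the share was 41.2%, against 30.8% of all curated genes and 33.2% of protein-coding genes. Matrix genes were also longer, with a median span of 50.5 kb against 13.5 kb for all curated genes and 16.7 kb for protein-coding genes, and Mmp genes were the shortest of the roles at 10.9 kb. The part of gene length in these shares was not tested. With neighbor peaks included, the shares moved closer together: 62.7% of matrix genes and 56.6% of all curated genes had a peak, and the Mmp genes rose to 65.2%.

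**Figure D1:**
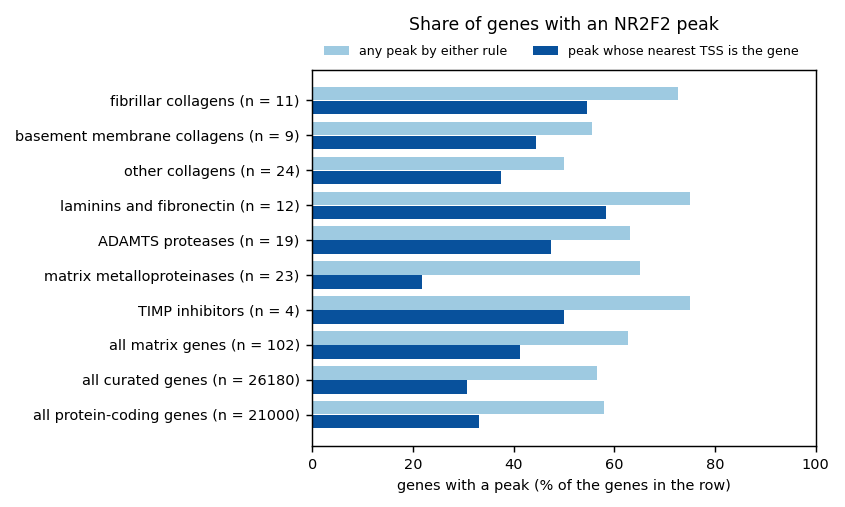
Percentage of genes with an NR2F2 peak, by role, for all 102 matrix genes and for all annotated genes; dark bars count peaks whose nearest TSS is the gene and light bars add peaks within 50 kb. The Mmp genes have the lowest dark bar (21.7%), while their light bar (65.2%) is close to that of the other roles.

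In every matrix gene peak, both ChIP counts were higher than the input count. Because peaks had been called on the same ChIP reads, this was built into the choice of peaks. With all libraries taken as equally deep, 81 of the 101 peaks passed the edgeR test for ChIP over input, where 80.7% of all peaks did. Among the 55 nearest peaks, 42 passed. These calls depend on the assumed depth, which is unknown: if ChIP depth was set to 2 times that of the input, 0 of the 101 passed (0% of all peaks), and if the input was the deeper by that factor, 98 did (97.9% of all peaks). At equal depth, 95 passed with a robust variance fit (97.5% of all peaks did) and 95 with the ChIP libraries scaled to each other (97.8%). DESeq2 called 67 at equal depth, or 66.3%, where it called 61% of all peaks.

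The second test scaled the libraries to their counts at peaks and asked which peaks stood above or below the typical NR2F2 peak, a comparison that does not need the unknown library depths. Of the 101 matrix gene peaks, 1 was called above (1.53% of all peaks were) and 0 below (0.0497% of all peaks were). None of the 55 nearest peaks was called by edgeR in either direction. DESeq2 also called 0, where it called 0.218% of all peaks above and 0% below. Without adjustment, 4 of the 55 had p under 0.05 above the typical peak (7.27%, against 7.89% of all peaks) and 5 below it (9.09%, against 2.55%). DESeq2 gave no adjusted p for 53 of the 55 (96.4%), as for 93.1% of all peaks. Relative to the typical peak, the nearest peaks ran from -1.42 to 1.84 log2 units, with a median of 0.05, against a median of 0.01 over all peaks. The neighbor peaks had a median of 0.32. As a ratio of counts with 0.5 added to each, the median ChIP over input was 4.87 ± 0.189 (SD over ChIP replicates, n = 2) at the nearest peaks, 5.91 ± 1.03 at the neighbor peaks and 4.75 ± 0.505 over all peaks. These SDs also hold the difference in total counts between the ChIP libraries, which moves every set alike. Both ChIP libraries were divided by the same input counts. The SDs of ratios, here and at single peaks below, therefore hold no counting error of the input. Within replicate 1 the median ratio was 5.0 at the nearest peaks and 5.11 over all peaks, and within replicate 2 it was 4.73 and 4.39, so the nearest peaks were lower than all peaks in 1 library and higher in the other.

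**Figure D2:**
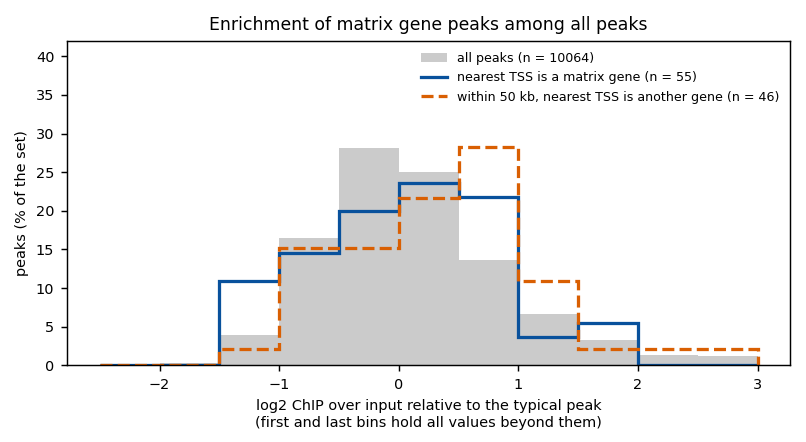
Distribution of the log2 ChIP over input enrichment relative to the typical peak, in bins of 0.5, as a percentage of each set of peaks; gray is all peaks, the solid line the 55 peaks nearest to a matrix gene and the broken line the 46 neighbor peaks. Both lines span the middle of the gray range, and no nearest peak reaches 2 log2 units.

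The peak called above the typical peak lay 19.2 kb upstream of Lamb2, which encodes a laminin beta chain, at chr9:108460321-108460620. It overlapped the TSS of Ccdc71 and also lay in an intron of Klhdc8b. It held 3 reads in the input, 105 in ChIP replicate 1 and 83 in ChIP replicate 2. Both ChIP counts were thus far above the input, with a ratio of 27 ± 4.45 (SD, n = 2). Its enrichment was 2.64 log2 units above the typical peak (SE 0.62, edgeR adjusted p = 0.00313). The call was kept without TMM (2.52 log2 units, adjusted p = 0.00823). It was lost with DESeq2 size factors in edgeR (2.61 log2 units, adjusted p = 0.0923) and with the DESeq2 test (2.62 log2 units, adjusted p = 0.130), at nearly the same enrichment. The other peaks near Lamb2 were at Qars (12 input reads, 45 and 39 ChIP reads) and at the TSS of Qrich1 (10 input reads, 37 and 25 ChIP reads).

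Among the fibrillar collagens, the genes of type I collagen, the main fiber of the interstitium, had peaks upstream of both chains. The strongest peak nearest to any matrix gene was that of Col1a1, which encodes the alpha 1 chain, 7080 bp upstream of its TSS at chr11:94928845-94929144. It held 12 input reads, 82 reads in ChIP replicate 1 and 70 in replicate 2, in the 94.3 percentile of all peaks by summed ChIP count. Both ChIP counts were high, but so was the input, so that its enrichment was 0.34 log2 units above the typical peak (SE 0.44, adjusted p = 0.897). Col1a2, which encodes the alpha 2 chain, had a peak 49.0 kb upstream at chr6:4456320-4456619 with 3 input reads and 49 and 38 ChIP reads. A second peak of Col1a2 lay in a coding exon 88 bp after the TSS, with 8 input reads and 34 and 29 ChIP reads. The distal peak of Col1a2 had the higher ratio, 12.6 ± 2.22 (SD, n = 2), against 3.76 ± 0.416 at the TSS. These ratios rest on 3 and 8 reads of the single input. Relative to the typical peak, edgeR gave 1.53 log2 units at the distal peak (SE 0.73, adjusted p = 0.428). At the TSS peak it gave -0.34 (SE 0.58, adjusted p = 0.922). The 2 peaks were not tested against each other.

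Type V collagen joins type I in fibrils and sets their width, and each of its 3 genes had a peak. Col5a1 was bound 67.5 kb upstream, with 6 input reads and 61 and 46 ChIP reads. Col5a2 had a peak 38.7 kb upstream that held 2 input reads, 15 reads in ChIP replicate 1 and 33 in replicate 2. This was the largest gap between replicates of any matrix gene peak by the exact binomial test (p = 0.00205, adjusted p = 0.227 over all peaks). Col3a1, next to Col5a2 on chromosome 1, encodes the other main fiber collagen of soft tissue and had no peak of its own. Its closest peak was that of Col5a2, 230 kb from its TSS. The pair of intron peaks of Col5a3 lay 885 bp apart, 29.7 and 28.8 kb after the TSS. Their counts were 6 in the input with 44 and 33 in the ChIP libraries, and, at the peak with the 3 cores in a row, 12 with 38 and 42. A neighbor peak of Col5a3 in the direction of Rdh8 held 9 input reads and 27 and 17 ChIP reads.

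Col11a1, a minor fibril collagen known from cartilage, had a peak over its TSS with 9 input reads and 24 and 29 ChIP reads. For Col11a2 and Col2a1, the peaks belonged to other promoters. Near Col11a2, the TSS of H2-Ke6 had 9 input reads and 92 and 78 ChIP reads, and the TSS of H2-K1 had 8 input reads and 45 and 37 ChIP reads. Col24a1 and Col27a1 had no peak. In this role, then, 2 of 8 nearest peaks lay at a TSS, those of Col1a2 and Col11a1.

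The basement membrane collagens were divided by locus. The 6 chains of type IV collagen are encoded by 3 head-to-head gene pairs, and peaks were found at only 1 of these pairs. Col4a3 and Col4a4 shared 3 peaks, all inside introns. The peak 31.7 kb into Col4a4, with the motif, held 11 input reads and 53 and 46 ChIP reads, and the other Col4a4 peak, 41.8 kb from the TSS, held 6 input reads and 14 and 13 ChIP reads. The peak 10.1 kb into Col4a3, at chr1:82596992-82597291, also held the motif and had 4 input reads and 23 and 20 ChIP reads. No peak lay at the start sites that Col4a3 and Col4a4 have side by side. Col4a1 and Col4a2, which make the most common form of type IV collagen, had their closest peak 184 kb away at Naxd, and Col4a5 and Col4a6 on the X chromosome had theirs 915 and 917 kb away at Acsl4.

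Col15a1 and Col18a1 encode the collagens that carry endostatin-type ends in vessel basement membranes. Their peaks lay 28.9 kb and 42.8 kb upstream. The Col15a1 peak held 8 input reads and 42 and 46 ChIP reads, and the Col18a1 peak held 11 input reads and 40 and 44 ChIP reads. Both pairs of ChIP counts were several fold above the input and close to each other. Col7a1, the anchoring fibril collagen, had only neighbor peaks, of which the stronger lay 59 bp after the TSS of Uqcrc1 with 8 input reads and 100 and 80 ChIP reads and the other at Pfkfb4 with 7 input reads and 52 and 35 ChIP reads.

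Among the other collagens, the strongest nearest peaks were at promoters. Col6a2, a chain of the microfibril collagen VI, had a peak over its TSS at chr10:76623291-76623590 with 6 input reads and 56 and 54 ChIP reads. Col23a1, a membrane-spanning collagen, had a peak over its TSS with 4 input reads and 54 and 55 ChIP reads. These replicates agreed within a few reads, and the ratios were 8.54 ± 0.218 for Col6a2 and 12.2 ± 0.157 for Col23a1 (SD, n = 2). The SDs leave out the counting error of the input, which held only 6 and 4 reads. Relative to the typical peak, the edgeR fit gave 0.88 log2 units for Col6a2 (SE 0.58, adjusted p = 0.671). For Col23a1 it gave 1.45 (SE 0.65, adjusted p = 0.376). Col26a1 was bound 478 bp after its TSS (9 input reads, 43 and 62 ChIP reads), and Col22a1, a collagen of tissue junctions, over its TSS (10 input reads, 17 and 23 ChIP reads). The Col22a1 counts lay little above the input, with a ratio of 1.95 ± 0.404.

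Col25a1, a membrane-spanning collagen of neurons and muscle, had 3 nearest peaks inside the gene. The peak 281 bp after the TSS held 4 input reads and 38 and 28 ChIP reads. Those 174 and 209 kb into the gene held 4 and 7 input reads, 15 and 21 reads in ChIP replicate 1 and 25 and 28 in ChIP replicate 2. The TSS peak had more ChIP reads in replicate 1, and both intron peaks had more in replicate 2. Col16a1, which associates with fibrils, had a peak 10.2 kb upstream with 7 input reads and 61 and 47 ChIP reads, and Col28a1 had an intron peak with 5 input reads and 52 and 39 ChIP reads.

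The collagen VI genes differed among themselves. Col6a2 had a second peak 40.5 kb upstream (10 input reads, 37 and 26 ChIP reads), and this was the closest peak to its neighbor Col6a1, at 61.7 kb, which had none. Col6a3 had a peak 99.7 kb after its TSS and past its end (8 input reads, 38 and 42 ChIP reads). A neighbor peak of Col6a3 near Mlph held the motif 5 bases from its center and had 8 input reads and 26 and 17 ChIP reads. Col6a6 had a weak peak in an intron of Col6a5 (3 input reads, 18 and 16 ChIP reads). Col6a4 and Col6a5 had none by the rule. Col9a3 and the strongest Col23a1 peak were cases of neighbor promoters: the first lay in Ogfr with 11 input reads and 63 and 53 ChIP reads, and the second over the TSS of Clk4 with 9 input reads and 95 and 81 ChIP reads.

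**Figure D3:**
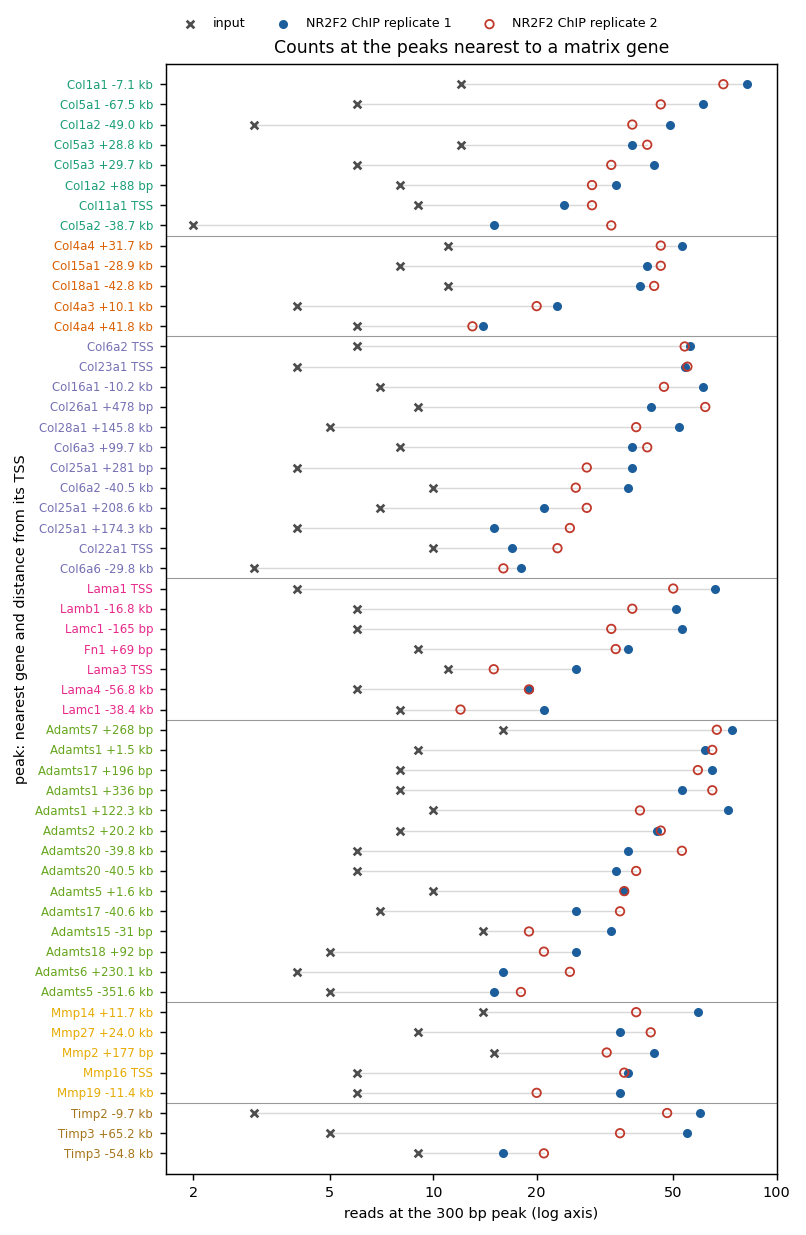
Reads in the input (crosses), ChIP replicate 1 (filled circles) and ChIP replicate 2 (open circles) at the 55 peaks nearest to a matrix gene, of which 1 is not shown, on a log axis, grouped by role and ordered by summed ChIP count. Every ChIP count lies to the right of its input, from 14 to 82 reads in replicate 1 and from 12 to 70 in replicate 2.

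Laminins are trimers of an alpha, a beta and a gamma chain, and at least 1 gene of each chain type had a nearest peak. Lama1, whose product lies in embryonic basement membranes, had a peak over its TSS at chr17:67697128-67697427 with 4 input reads, 66 reads in ChIP replicate 1 and 50 in replicate 2. This was the highest ratio of any TSS peak of a matrix gene, 13 ± 2.51 (SD, n = 2). Its enrichment was 1.53 log2 units above the typical peak (SE 0.65, adjusted p = 0.309). The beta chain gene Lamb1 was bound 16.8 kb upstream, with 6 input reads and 51 and 38 ChIP reads. Lamc1, the gamma chain of most laminins, had a peak 165 bp upstream of its TSS, with the motif 3 bases from the peak center. It held 6 input reads and 53 and 33 ChIP reads, and it was the only peak at a matrix gene TSS that carried the motif.

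The weaker laminin peaks were mostly distal. A second peak of Lamc1, 38.4 kb upstream and also with the motif, held 8 input reads and 21 and 12 ChIP reads. Lama4, known from vessel walls, was nearest to a peak 56.8 kb upstream with 6 input reads and 19 reads in each ChIP library. Lama3, a chain of epithelial laminins, had a peak over a TSS with 11 input reads and 26 and 15 ChIP reads. Its replicate 2 count was close to its input, and the ratio of 1.83 ± 0.676 was among the lowest of the matrix genes. Lama5 had 3 neighbor peaks, of which that in Cables2 was the strongest (8 input reads, 65 and 58 ChIP reads), followed by the peaks at Rps21 (59 and 37 ChIP reads) and upstream of it (29 and 26 ChIP reads), each with 8 input reads as well. Lama2, Lamb3 and Lamc3 had no peak.

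Fibronectin, encoded by Fn1, is the matrix protein on which collagen fibers are first laid down. Its peak began 69 bp after the TSS, in the 5′ untranslated region, and held 9 input reads and 37 and 34 ChIP reads. The replicates were close, and the enrichment relative to the typical peak was -0.34 log2 units (SE 0.55, adjusted p = 0.922).

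The ADAMTS proteases had 14 nearest peaks, the most of any role. Adamts1, a protease that cuts proteoglycans, had 3 of them. The peaks 1452 and 336 bp after its TSS, in an intron and a coding exon at chr16:85801362-85801661 and chr16:85802478-85802777, lay 1116 bp apart. They held 9 and 8 input reads, 62 and 53 reads in ChIP replicate 1 and 65 in ChIP replicate 2 at both. The third, 122 kb after the TSS, held 10 input reads, 72 reads in replicate 1 and 40 in replicate 2. None of the 3 differed between the replicates by the exact binomial test, with adjusted p from 0.496 to 0.819. Adamts5, the next gene on chromosome 16 and also a protease of proteoglycans, had a coding exon peak 1647 bp after its TSS (10 input reads, 36 reads in each ChIP library) and a far peak 352 kb upstream (5 input reads, 15 and 18 ChIP reads).

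Adamts7 and Adamts17 carried the strongest ADAMTS peaks at a TSS. The Adamts7 peak, 268 bp after the TSS, held 16 input reads and 74 and 67 ChIP reads, and its input count was the highest of all matrix gene peaks. Its ratio was therefore 4.30 ± 0.30, lower than that of Adamts17, 7.35 ± 0.499 (SD, n = 2), which had 8 input reads and 65 and 59 ChIP reads at 196 bp after the TSS. Near Adamts7, the peaks at Morf4l1 formed a pair 657 bp apart with 9 and 4 input reads, 38 and 37 reads in replicate 1 and 49 and 32 in replicate 2. Adamts17 had a second peak in an intron of Cers3 (7 input reads, 26 and 35 ChIP reads).

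At the remaining ADAMTS genes the counts were lower. Adamts18 was bound 92 bp after its TSS with 5 input reads and 26 and 21 ChIP reads. The peak 31 bp upstream of the Adamts15 TSS, which also lay within 50 kb of Adamts8, held 14 input reads and 33 and 19 ChIP reads. This was the lowest enrichment of a matrix gene peak, -1.42 log2 units relative to the typical peak (SE 0.50, adjusted p = 0.149). Adamts2, which trims the ends of fibrillar procollagens, had an intron peak with 8 input reads and 45 and 46 ChIP reads, and Adamts6 a far peak with 4 input reads and 16 and 25 ChIP reads. The pair of peaks 39.8 and 40.5 kb upstream of Adamts20 lay 692 bp apart and held 6 input reads each, with 37 and 53 ChIP reads at the first and 34 and 39 at the second. Adamts4, a further protease of proteoglycans, had only neighbor peaks. The peak in an intron of Usp21, whose sequence is given above, held the motif, 5 input reads and 52 and 35 ChIP reads.

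Of the 25 peaks of the matrix metalloproteinases, 20 were neighbor peaks. The 5 nearest peaks belonged to Mmp2, Mmp14, Mmp16, Mmp19 and Mmp27. Mmp2, a gelatinase made by mesenchymal cells, had a peak 177 bp after its TSS with 15 input reads and 44 and 32 ChIP reads. Mmp14, the membrane-bound protease that activates the Mmp2 protein, had a peak 11.7 kb after its TSS and just past its end, with the motif, 14 input reads and 59 and 39 ChIP reads. Both had input counts above the median of 7 for all peaks, and their ratios were 2.48 ± 0.547 for Mmp2 and 3.41 ± 0.975 for Mmp14 (SD, n = 2). Mmp16, another membrane-bound protease, had a peak over its TSS with 6 input reads and 37 and 36 ChIP reads.

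Mmp14 had 4 peaks in all, the most of any matrix gene. Its neighbor peaks lay in Slc7a7 (7 input reads, 39 and 24 ChIP reads), upstream of Lrp10 (5 input reads, 48 and 30 ChIP reads) and in Lrp10 (5 input reads, 53 and 41 ChIP reads). All 4 had more reads in ChIP replicate 1 than in replicate 2. At Mmp19, the nearest peak was weak (6 input reads, 35 and 20 ChIP reads) and the neighbor promoters were strong, with 5 input reads and 77 and 95 ChIP reads at Pym1 and 14 input reads and 125 and 107 ChIP reads at Dnajc14. The Dnajc14 site had the highest summed ChIP count of all matrix gene peaks. It held no match to the motif and touched an untranslated region, and its sequence is not printed.

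Neighbor peaks were also strong at Mmp25, Mmp9 and Mmp28. Near Mmp25, the TSS of Thoc6 held 11 input reads and 128 and 89 ChIP reads, the TSS of Zfp13 8 input reads and 49 and 46 ChIP reads, and a Zscan10 exon 9 input reads and 34 and 28 ChIP reads. Near Mmp9, the gelatinase of leukocytes, the promoter of Zfp335os held 9 input reads and 106 and 88 ChIP reads, while a weaker peak in Slc12a5 held 5 input reads and 23 and 19 ChIP reads. The Mmp28 peak whose sequence is given above lay in an intron of Mmp28 itself, although the closest TSS was that of 1700020L24Rik, and held 6 input reads and 69 and 61 ChIP reads. Other peaks near Mmp28 were in 1700020L24Rik (10 input reads, 57 and 48 ChIP reads) and at Taf15 (4 input reads, 36 and 21 ChIP reads). Mmp15 had a neighbor peak at Zfp319 with the motif, 7 input reads and 55 and 56 ChIP reads.

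The cluster of 10 Mmp genes on chromosome 9, which spans 427 kb and includes collagenases and stromelysins, held a single peak. It lay 24 kb after the Mmp27 TSS, between Mmp27 and Mmp20, and was within 50 kb of Mmp8 and Mmp20 as well. It had 9 input reads and 35 and 43 ChIP reads. The other 7 genes of the cluster, Mmp7, Mmp10, Mmp1a, Mmp1b, Mmp3, Mmp12 and Mmp13, had no peak by the rule. Among the other genes with neighbor peaks only, Mmp11 (at Smarcb1), Mmp21 (at Edrf1 and Uros), Mmp23 (at Mib2 and Fndc10), Mmp24 (at BC029722), Adamts13 (at Rexo4), Col2a1 (at Tmem106c) and Col17a1 (at Sfr1) had between 21 and 63 reads in ChIP replicate 1 and between 17 and 55 in replicate 2.

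Of the TIMP inhibitors, Timp2 had the highest ratio of all 55 nearest peaks. Its peak lay 9724 bp upstream of the TSS at chr11:118365135-118365434 and held 3 input reads, 60 reads in ChIP replicate 1 and 48 in replicate 2. Both ChIP counts were far above the input, with a ratio of 15.6 ± 2.42 (SD, n = 2). Its enrichment was 1.84 log2 units above the typical peak but with an SE of 0.71, and the adjusted p was 0.229. Timp3, the inhibitor that stays bound to the matrix, lies inside an intron of Syn3, and so did its peaks. The peak 65.2 kb after its TSS held 5 input reads and 55 and 35 ChIP reads, and the peak 54.8 kb upstream, with the run of 3 cores, had a ratio of 2.0 ± 0.372. Timp1 lies inside Syn1, and its neighbor peak was in an exon of Syn1 (8 input reads, 65 and 60 ChIP reads). Timp4 had its closest peak 307 kb away.

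Seen together, the peaks nearest to matrix genes were mostly distal. Of the 55, 18 lay within 1 kb of a TSS of their gene (32.7%, against 58.0% of all peaks within 1 kb of a TSS), 4 at 1 to 10 kb, 21 at 10 to 50 kb (38.2%, against 17.6%) and 12 beyond 50 kb (21.8%, against 15.3%). The peak was upstream of the TSS in 21 cases, overlapped it in 7 and was downstream in 27, and 25 of the 55 lay inside the gene. Classed by the position of the peak, 9 were TSS proximal (16.4%, against 36.0% of all peaks), 2 upstream, 20 in the gene body and 24 intergenic (43.6%, against 25.8%). By the midpoint of the peak, 18 were in introns, 8 in 5′ untranslated regions, 4 in coding exons and 25 outside any gene. Of the neighbor peaks, 54.3% were TSS proximal and 13% intergenic.

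**Figure D4:**
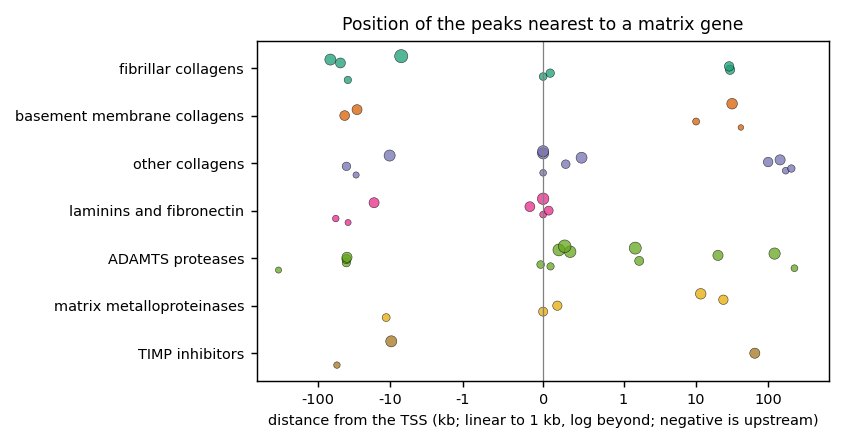
Distance of the 55 peaks, of which 1 is not shown, from the TSS of their matrix gene, in kb, by role; the axis is linear to 1 kb and logarithmic beyond, negative values are upstream, the area of a circle grows with the mean ChIP count, and the height within a row is spread for legibility. Circles crowd at the TSS and between 10 and 100 kb, and few lie at 1 to 10 kb.

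By position class, the median ratio was 5.46 ± 0.435 for the 9 TSS proximal peaks, 4.47 ± 0.207 for the 20 gene body peaks and 4.86 ± 0.195 for the 24 intergenic ones (SD over ChIP replicates, n = 2), and the 2 upstream peaks, of Col1a1 and Timp2, had 10.8 ± 1.55. Over all peaks, the values were 5.08 ± 0.761 for TSS proximal, 4.73 ± 0.386 for gene body and 4.34 ± 0.282 for intergenic peaks. By summed ChIP count, 15 of the 55 nearest peaks were in the top 25% of all peaks (27.3%) and 2 in the top 10% (3.64%), those of Col1a1 and Adamts7. Of the 46 neighbor peaks, 10 were in the top 10% (21.7%).

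The replicates were compared peak by peak. None of the 101 matrix gene peaks differed between the ChIP libraries by the exact binomial test with adjustment over all peaks, where 0.0993% of all peaks did. Without adjustment, p was under 0.05 at 2 peaks in favor of replicate 1 (1.98%, against 3.66% of all peaks) and at 5 in favor of replicate 2 (4.95%, against 5.16%). The count was higher in replicate 1 at 32 of the 55 nearest peaks (58.2%) and at 42 of the 46 neighbor peaks (91.3%), against 69.3% of all peaks. Replicate 1 had 1.17 times the counts of replicate 2 at peaks. The peaks with relatively more reads in replicate 2 included, besides Col5a2, those of Col26a1 (p = 0.00810, adjusted p = 0.346, exact binomial test) and Adamts20 (p = 0.0151, adjusted p = 0.396), and the peak most in favor of replicate 1 was the neighbor peak of Col9a2 at Smap2, with 12 input reads and 61 and 27 ChIP reads (p = 0.00377, adjusted p = 0.273).

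The motif was present in 7 of the 55 nearest peaks, or 12.7% (95% Wilson interval 6.30 to 24), and in 14.9% of all matrix gene peaks (9.21 to 23.1), against 10.5% of all peaks (9.88 to 11.1). These intervals overlap. The peaks with it included both of Lamc1 and those of Col4a3, Col4a4, Col5a3 and Mmp14, and it was in none of the peaks nearest to an Adamts, a Timp or an other collagen gene. By role, 3 of 8 laminin and fibronectin peaks, 2 of 5 basement membrane collagen peaks, 1 of 8 fibrillar collagen peaks and 1 of 5 Mmp peaks held it. Among the neighbor peaks it was found in 8, which included those near Lamb2, Mmp15, Col11a2 and Col6a3, the peak in Usp21 near Adamts4 and the pair of peaks near Mmp28 whose sequences are given above. Of the 16 matches, 8 lay within 50 bp of the peak center (50%, against 51.8% of the 1273 matches in all peaks).

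The 6-letter core, AGGTCA or GGGTCA on either strand, which is part of the motif, was in 43 of the 55 nearest peaks (78.2%), in 34 of the 46 neighbor peaks (73.9%) and in 58.9% of all peaks. In TSS proximal peaks it was in 8 of 9 nearest peaks (88.9%) against 48.6% of all, in gene body peaks in 80.0% against 57.1%, and in intergenic peaks in 75.0% against 74.0%. By role, the core was in all 8 nearest peaks of the fibrillar collagens, 10 of 12 of the other collagens, 4 of 5 of the basement membrane collagens, 11 of 14 of the Adamts genes, 6 of 8 of the laminins and fibronectin, 3 of 5 of the Mmp genes (60.0%) and 1 of 3 of the Timp genes (33.3%). These shares were not tested against each other. The median GC content was 58.0% at the nearest peaks and 60.7% over all peaks, and its part in these shares was not tested. In the promoter windows of RefSeq (GRCm38), which held 79 windows of 72 of the 102 genes, the 8-letter motif was in 3 windows (3.80%: Col4a4, Col20a1 and Col6a5) against 2.63% of 32851 promoters, and no peak lay at the TSS of these 3 genes. The width of the windows is not given here, so these shares cannot be set beside those of the 300 bp peaks.

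**Figure D5:**
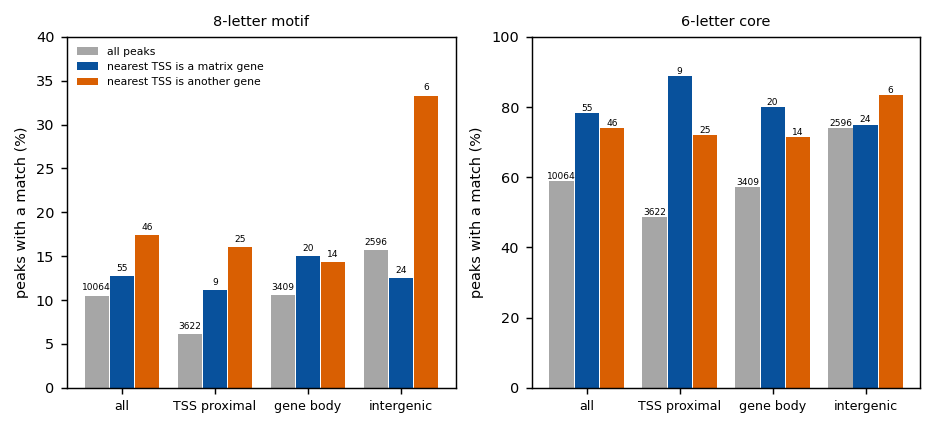
Percentage of peaks with the 8-letter motif (left) and its 6-letter core (right) in all peaks, in peaks nearest to a matrix gene and in neighbor peaks, overall and by position class; the number of peaks is printed above each bar, and the upstream class, with 2 and 1 matrix gene peaks, is left out. The core was in 88.9% of nearest and 48.6% of all TSS proximal peaks, and in 75.0% and 74.0% of intergenic ones.

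The genes with no peak by the rule were not all remote from binding. For the 38, the distance from the TSS to the closest peak ran from 59.4 to 917 kb, with a median of 123 kb. Col8a2 (59.4 kb), Col20a1 (61.0 kb) and Col10a1 (61.7 kb) were just outside the 50 kb window, and the Adamts genes without a peak were Adamts3, Adamts9, Adamts10, Adamts12, Adamts14, Adamts16 and Adamts19.

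Other matrix genes were counted the same way, in groups set by function: enzymes of collagen assembly and crosslinking, glycoproteins, proteoglycans, receptors, and related proteases and inhibitors. Of these 79 genes, 40 had a nearest peak (50.6%) and 53 any peak, against 30.8% and 56.6% of all curated genes. Gene length was not taken into account. None of their 55 nearest peaks was called above or below the typical peak by edgeR (1.53% and 0.0497% of all peaks were). The 8-letter motif was in 9 of them (16.4%, against 10.5% of all peaks). In each group the strongest nearest peak lay in an intron or upstream. Pcolce, the enhancer of procollagen cleavage, had an intron peak 348 bp after its TSS with 6 input reads and 98 and 76 ChIP reads. The integrin gene Itga9 had 9 input reads and 113 and 91 ChIP reads in an intron, and the ADAMTS-like gene Adamtsl5 had 10 input reads and 91 and 88 ChIP reads. These ChIP counts exceeded those of every peak nearest to a collagen, laminin or protease gene. Sparc, a collagen-binding glycoprotein, had 14 input reads and 81 and 68 ChIP reads in an intron, and Bgn, the proteoglycan biglycan, had 4 input reads and 66 and 53 ChIP reads 6597 bp upstream of its TSS. The last 3 of these peaks, at Adamtsl5, Sparc and Bgn, held the motif.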

How the data were processed

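NR2F2 ChIP-seq of whole E14.5 testes was analysed from raw counts of reads per peak, deposited by the authors for each library. Per the study's methods and the submitters' processing notes, single-end reads were trimmed (Trim Galore 0.6.7), mapped to mm10 with Bowtie2, kept above a mapping quality minimum and freed of duplicates (Picard 1.110). The authors merged the ChIP replicates, called peaks with HOMER 4.11.1 and resized them to 300 bp. The sources used here do not give how reads were assigned to peaks. The totals of whole libraries were not used, so a ratio of ChIP to input is known only up to a depth factor, and duplicate removal limits high counts.

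All 10069 peaks were fitted with the quasi-likelihood test of edgeR 4.0.16 (limma 3.58.1, R 4.3.3; DESeq2 1.42.0 as an alternative), with Benjamini-Hochberg adjusted p under 0.05. One fit took the libraries as equally deep, the other scaled them by TMM. The single input was assumed to vary like the ChIP libraries. Replicates were compared by exact two-sided binomial tests. P-values measure the spread between these libraries, made from pooled testes. Intervals and binomial tests cover counting error only. Scripts (Python 3.11.15, numpy 2.4.6, scipy 1.17.1, pandas 2.3.3) were tested on simulated data.

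Distances ran from the nearer edge of the peak to a TSS of 45756 curated transcripts; 5 peaks on unplaced contigs got no gene. TSS proximal means overlapping the TSS or up to 1 kb upstream, upstream up to 10 kb, gene body inside the gene. Named genes were, by role, the 4 with the strongest peak, those with a peak within 1 kb of the TSS, with 3 or more peaks, with the motif, and any called; the remaining nearest peaks were added after their values were seen. The members and lists were chosen with earlier results of these data known. The values of 2 matrix gene peaks are not reported here, although the counts and shares include them.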

Additional observations from a re-analysis of the deposited data

How the results depend on the processing

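In the main fit, 1 matrix gene peak was called above the typical peak (1.53% of all peaks were). With DESeq2 size factors in edgeR, 0 were called (0.387% of all peaks), and DESeq2 called 0 (0.218%). Among the 25 peaks with at least 10 input counts, which left the called peak out, 0 were called. With nearest peaks only it was 0 of 55, and with a window of 100 kb 3 of 170. Calls below it stayed at 0 under each alternative run. At equal depth, 81 of the 101 passed above input (80.2%, against 80.7% of all peaks). None passed when ChIP depth was set to 2 times the input depth (0% of all peaks). The number passing was 21 of the 25 peaks with at least 10 input counts, 42 of the 55 nearest peaks (76.4%) and 141 of the 170 at 100 kb. Nearest peaks only gave 42 genes in place of 64. They also gave 55 peaks in place of 101, where a window of 10 kb gave 60 and one of 100 kb 170. The share with the motif went from 14.9% to 76.2% for the core and to 7.92% in the central 150 bp. The TSS proximal share went from 33.7% to 54.5% with 1 kb on either side and to 16.4% for nearest peaks. The median log2 ratio of ChIP to input, 2.39, was 1.86 with a pseudocount of 5, 1.99 at 10 or more input counts and 2.28 for nearest peaks, and 2.36 to 2.42 with 1 ChIP replicate left out. Filters test fewer peaks, and windows and the nearest-only rule change which peaks are counted. The core is a part of the motif. The cause of the other shifts was not tested. Leaving out a ChIP replicate leaves 1 library per group, so no test could be rerun. No paired analysis was possible because there was a single input library for the 2 ChIP libraries. The input held a median of 7 counts per peak, and its depth relative to the ChIP libraries is unknown.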
